A study of Mus musculus with 2 samples.

Results

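Intergenic Rfx6 peaks close to gene starts are the peaks of 3HA-Rfx6 whose summit lay outside every protein-coding gene body, more than 1 kb and at most 10 kb from the nearest start of a protein-coding transcript. The rule used position alone, on the NCBIM37 (mm9) mouse genome with the GENCODE M1 annotation, and it chose 1740 of the 23308 listed peaks (7.47%, 95% Wilson interval 7.13 to 7.81). They were 18.5% of the 9382 summits outside gene bodies. Binding was measured by ChIP-seq, in which DNA bound by a protein is precipitated with an antibody and sequenced, in Min6B1, a line of mouse β cells that secrete insulin. In the 3HA-Rfx6 ChIP group, cells kept in 25 mM glucose received 24 μg of the plasmid pCMV-Tag2A-3HA-Rfx6, in which a viral CMV promoter drives Rfx6 with an HA tag, and were harvested after 2 days for precipitation with the HA antibody 12CA5. In the control ChIP group, the label gives Min6b1 cells precipitated with the same antibody, although the growth text of that sample repeats the transfection. There was 1 library of each, so no value below has a replicate error, no test between the conditions was possible, and binding of the transfected protein cannot be told apart from binding that the cells' own Rfx6 would show.

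Rfx6 is a winged-helix transcription factor of the RFX family that acts in the development of the endocrine pancreas and in mature β cells. RFX proteins bind the X-box, a pair of inverted arms separated by a short spacer, often as dimers that hold 1 arm each. Intergenic sequence a few kb from a start is where many proximal enhancers lie, and such elements need not act on the nearest gene, so the gene names below give positions and not targets.

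The X-box sequences of the 10 strongest peaks that hold a strict X-box are printed here because they show the element that the protein is known to bind. The strict X-box was an arm GTNNCC in which the fourth base is a purine, 0 to 3 free bases, and an arm NGNAAC in which the first base is a purine and the third a pyrimidine. Each line gives the gene of the nearest start, the mm9 position, the strand read 5′ to 3′, and the sequence, with the X-box in capitals and 20 bases of the genome on each side.
Gadd45g, chr13:51949120-51949173, minus strand: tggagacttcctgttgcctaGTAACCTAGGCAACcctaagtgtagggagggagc
Spaca3, chr11:80666688-80666740, minus strand: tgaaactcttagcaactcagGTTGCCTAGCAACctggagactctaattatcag
Bbc3, chr7:16885173-16885225, minus strand: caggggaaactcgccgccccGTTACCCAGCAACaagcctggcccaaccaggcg
Trit1, chr4:122691313-122691366, plus strand: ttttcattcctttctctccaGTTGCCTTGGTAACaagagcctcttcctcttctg
Nrarp, chr2:25032539-25032592, plus strand: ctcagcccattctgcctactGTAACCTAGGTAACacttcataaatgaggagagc
Gm10495, chr17:66675102-66675154, minus strand: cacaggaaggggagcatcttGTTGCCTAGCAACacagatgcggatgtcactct
2310007B03Rik, chr1:95065065-95065118, plus strand: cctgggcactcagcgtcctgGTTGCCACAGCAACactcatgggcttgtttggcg
Junb, chr8:87503960-87504013, plus strand: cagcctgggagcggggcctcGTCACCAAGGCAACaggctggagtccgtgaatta
Hdac11, chr6:91103937-91103990, minus strand: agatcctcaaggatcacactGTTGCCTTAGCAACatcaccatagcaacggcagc
Bpifc, chr10:85479490-85479542, plus strand: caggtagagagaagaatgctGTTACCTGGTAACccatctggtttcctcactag

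The best matches in the peaks at Pax6 and at Ldha are shown next, since the study had examined these genes in β cells. The study places its Ldha X-box about 10 kb upstream of the start. Whether a peak shown here holds that X-box was not tested. The match at Pax6 and that of the Ldha peak had 1 mismatch to the strict pattern and no base between the arms, and the match in the other peak between Gm5331 and Ldha had 2 mismatches. Where several matches had equally few mismatches, the one nearest the summit was taken as the best.
Pax6, chr2:105506866-105506917, minus strand: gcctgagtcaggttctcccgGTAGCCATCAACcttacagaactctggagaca
Ldha, chr7:54094586-54094637, plus strand: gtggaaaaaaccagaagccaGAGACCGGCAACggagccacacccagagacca
Gm5331 and Ldha, chr7:54090844-54090897, plus strand: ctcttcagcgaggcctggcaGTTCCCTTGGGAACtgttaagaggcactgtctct

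The 3HA-Rfx6 library held 49443917 reads, of which 33949757 (68.7%) remained after duplicate positions were removed, against 3567375 of 16911298 (21.1%) in the control. The retained reads of the ChIP library were 9.52 times those of the control, and the part of this difference in the fold enrichments below was not tested. The intergenic peaks close to starts held 163815 reads, or 0.483% of the retained reads. Intervals given below are 95% Wilson intervals for shares and exact Poisson intervals for densities. They cover counting error only, and peaks of 1 library are not replicates.

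Per length of sequence, peaks were more frequent between 1 and 10 kb from a start than over all intergenic sequence beyond 10 kb, and far less frequent than at promoters. The intergenic sequence of that distance amounted to 164 Mb and held 10.6 summits per Mb (10.1 to 11.1). Promoters, within 1 kb of a start, held 83.2 per Mb, introns at the same distance from a start held 14.4 per Mb (13.9 to 14.9), and intergenic sequence over 10 kb from any start held 4.76 per Mb (4.65 to 4.88). These intervals did not overlap. No test was made.

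The density fell from the promoter within the first kb and was then nearly level. Outside gene bodies it was 57.3 summits per Mb in the first kb (53.9 to 60.9) and 12.4 per Mb from 1 to 2 kb (10.9 to 14.0). From 2 to 10 kb it ranged between 8.31 and 12.0 per Mb in bins of 1 kb, and from 10 to 20 kb between 8.83 and 10.5. Upstream of the nearest start it went from 13.6 per Mb between 1 and 2 kb (11.9 to 15.5) to 10.4 between 5 and 6 kb (8.77 to 12.2) and 11.1 between 9 and 10 kb (9.27 to 13.2). Thus the 10 kb limit of the rule marked no step in the density.

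**Figure D1:**
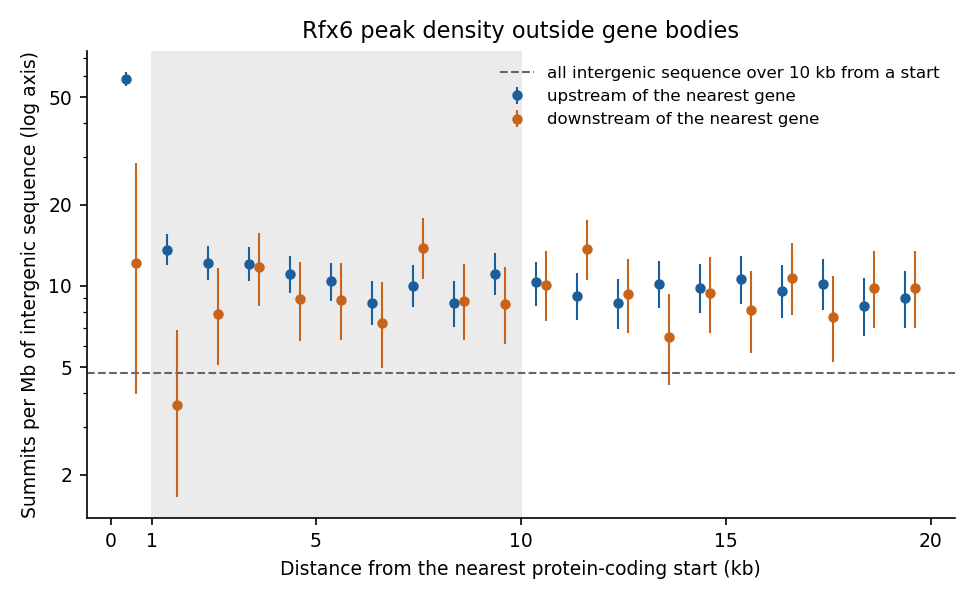
The plot gives summits per Mb of intergenic sequence (log axis) in bins of 1 kb by distance from the nearest protein-coding start (kb), upstream in blue and downstream in orange, with 95% Poisson intervals; the grey band spans 1 to 10 kb and the dashed line is the density over all intergenic sequence more than 10 kb from a start (4.76 per Mb). The first kb upstream stands at 58.3 per Mb, and the upstream bins in the grey band lie between 8.62 and 13.6.

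Most of these peaks lay upstream of the gene of the nearest start, as most of the sequence did. Of the 1740 peaks, 1416 (81.4%, 79.5 to 83.1) were upstream, while 78.3% of the sequence was. The density was 11 per Mb upstream (10.4 to 11.6) and 9.10 per Mb downstream (8.13 to 10.1), where a summit must lie past the end of a short gene. By the direction of the 2 genes that border the gap, 917 peaks lay between genes in tandem (9.79 per Mb), 631 between divergent genes (11.6 per Mb) and 190 between convergent genes (11.8 per Mb). A summit in an annotated noncoding gene was found for 108 peaks (6.21%), with 65 in lincRNA genes and 39 in genes of processed transcripts. The share was 4.43% over all peaks, 5.61% at promoters, 3.04% in introns at the same distance and 5.96% at intergenic sites over 10 kb away.

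The peaks nearest to each limit of the rule are given as examples. So few peaks cannot show whether strength changed at a limit. Just inside the near limit were the peaks at Kcnc4, a potassium channel gene, with 344 reads at 1002 bp, and at Cd177 with 41 reads at 1004 bp. Just outside it were those at Epha4, an ephrin receptor gene, with 226 reads at 1000 bp and at Mybpc2 with 46 reads at 996 bp. At the far limit, the peaks at Zfp90 (119 reads, 9994 bp) and Shf (82 reads, 9984 bp) were members and those at L1cam (69 reads, 10003 bp) and Car15 (119 reads, 10012 bp) were not.

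In strength, the intergenic peaks close to starts were ordinary peaks of this library. They held 26 to 625 reads with a median of 70 (quartiles 50 and 112), against a median of 73 over all peaks, 82 at promoters, 73 in introns at the same distance and 69 at intergenic sites over 10 kb away. Their fold enrichment, a ratio to background given by the peak caller, ranged from 3.44 to 75.4 with a median of 8.53, against 8.54 over all peaks. The peaks were 399 to 4435 bp long with a median of 1176 bp. At least 128 reads were found in 344 of them (19.8%, 18 to 21.7), against 20.7% of all peaks and 26.6% of promoter peaks (25.4 to 27.9). Reads and fold enrichment of a peak went together, with a Spearman's rho of 0.788 across the 1740 peaks, which share 1 library and its background.

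The peak with the most reads, 625, lay 9354 bp upstream of Odf3l2, a relative of a protein of the sperm tail, and its fold enrichment of 75.4 was also the highest. It was followed by a peak 4231 bp upstream of 6330403A02Rik with 569 reads, 30.5-fold enriched. Upstream of Reep4, which codes for a protein that shapes the endoplasmic reticulum, 2 peaks 2323 bp apart held 521 and 465 reads and were enriched 43.1-fold and 64.3-fold. These 4 peaks are among the 0.506% of all peaks with at least 465 reads.

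The other 6 peaks among the first 10 held between 425 and 490 reads. They lay at Ier5l (490 reads, the one of the 10 on the downstream side), Theg, a testis gene (441), Pcdh1, a protocadherin (434), Gm17688 (432), Ripk4, a protein kinase (429), and Slc6a19, a transporter of neutral amino acids (425). Of the 10 peaks, 9 were upstream, 8 had another summit within 10 kb, and the GC content at the summit ranged from 44.3% to 72.6%. The highest fold enrichments after Odf3l2 belonged to Pcgf5, a Polycomb protein gene (72.3, with 395 reads), the second Reep4 peak (64.3), Pnmal1 (57.9, with 298 reads) and Bbc3, which codes for the pro-apoptotic protein Puma (57.0, with 349 reads).

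**Figure D2:**
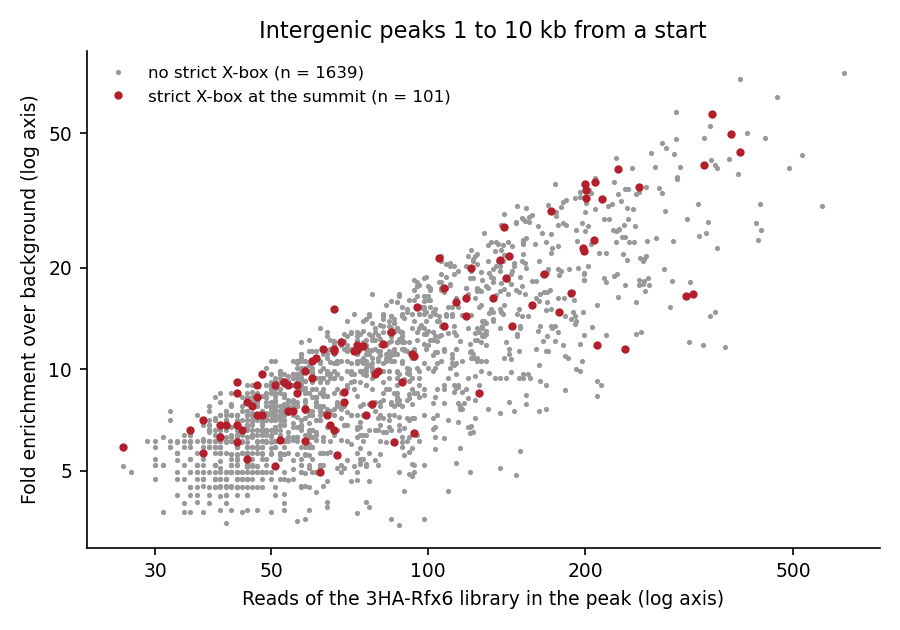
Each point is 1 of the 1740 intergenic peaks 1 to 10 kb from a start, by its reads in the 3HA-Rfx6 library and its fold enrichment over background (both log axes), in red where a strict X-box lies within 100 bp of the summit (101 peaks). The red points reach up to 396 reads, at Gadd45g, and none is among the 10 peaks with the most reads. The peak at the upper right, with 625 reads and 75.4-fold enrichment, is that at Odf3l2.

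A strict X-box lay within 100 bp of the summit in 101 of the 1740 peaks (5.80%, 4.80 to 7.00), against 6.44% of all peaks. In windows of the same 201 bp placed 1 kb to the right it was found in 10 (0.575%, 0.312 to 1.05), and 241 of these windows (13.9%) still reached into a listed peak. The share at the summit was 5.75% at promoters (5.13 to 6.44), 5.88% in introns at the same distance (5.08 to 6.79) and 7.92% at intergenic sites over 10 kb away (7.29 to 8.60). Only the last interval lies apart from that of the intergenic peaks close to starts, and the difference was not tested. With 1 mismatch allowed, 28.8% of the peaks (26.7 to 31.0) had a match at the summit and 4.66% in the flank (3.76 to 5.75).

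The middle of the strict X-box lay a median of 20.5 bp from the summit, and within 25 bp in 62 of the 101 peaks (61.4%). In bins of 50 bp, the share of peaks with a match of at most 1 mismatch was 13.0% (11.5 to 14.6) just left of the summit and 12.1% (10.6 to 13.7) just right of it. At 500 to 1000 bp from the summit it averaged 1.4% per bin, with a range of 0.977% to 1.78%. The same bins of all 23308 peaks reached 12.1% and 12.7%, so the profile was much like that of the whole list.

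**Figure D3:**
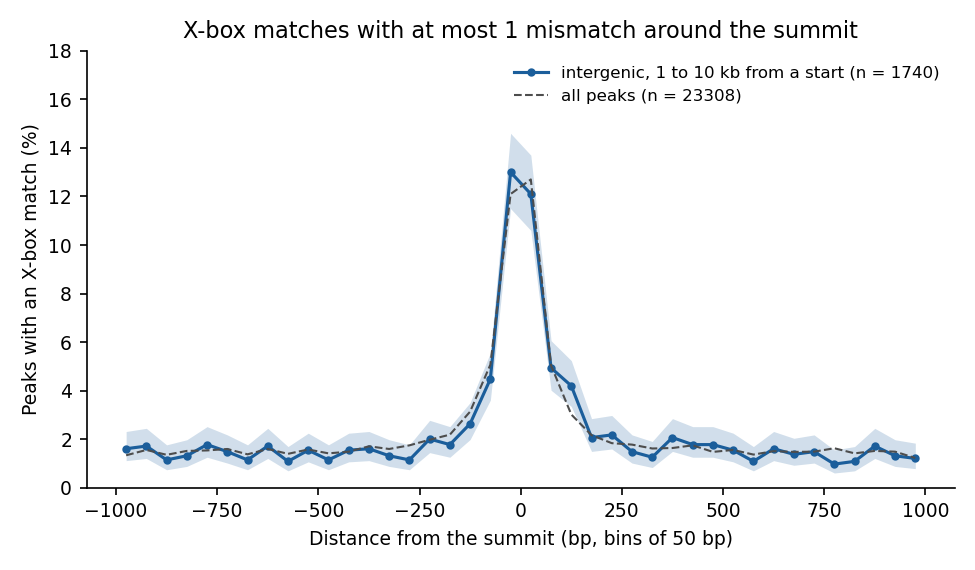
The plot gives the share of peaks (%) with an X-box match of at most 1 mismatch in bins of 50 bp by distance from the summit (bp), for the 1740 intergenic peaks close to starts (blue, with the 95% Wilson interval shaded) and for all 23308 peaks (dashed). Both curves rise from under 2% to about 13.0% within 50 bp of the summit.

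Among the arms of the X-box, spacers of 1 or 2 bases prevailed, as in the printed sequences. A strict X-box with 1 base between the arms was at the summit of 58 peaks and in the flank of 4, and with 2 bases at the summit of 41 and in the flank of 5. With 3 bases it was at the summit of 4 peaks, and with no base in none of 1740. Allowing 1 mismatch, a spacer of 1 base was found in 15.5% of summits (13.9 to 17.3) and 1.44% of flanks, and a spacer of 2 bases in 10.4% (9.05 to 11.9) and 1.78%.

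Most peaks had a weaker match, and the best match at the summit was closer to the X-box than that in the flank. It had 2 mismatches of 11 constrained bases in 933 peaks (53.6%), 1 in 400 (23.0%) and 3 in 303 (17.4%). Over all peaks, the shares with 2, 1 and 3 mismatches at the summit were 52.6%, 23.5% and 17.2%. In the flank of the intergenic peaks close to starts, 3 mismatches were the most frequent outcome (54.4%). The 10 peaks with the most reads had no match with fewer than 2 mismatches, with 8 at 2 mismatches and 2 at 3. The middle of that match was within 10 bp of the summit in 7 of the 10. Among matches with equally few mismatches the one nearest the summit was taken. This closeness is therefore in part set by the choice, and nothing is read from it.

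Of the 367 peaks with the fewest reads, 26 to 47, a strict X-box was found in 4.90% (3.12 to 7.62), and of the 344 with the most, 128 to 625, in 8.43% (5.93 to 11.8). In 3 groups of like size between them it was found in 4.87%, 6.51% and 4.39%. With 1 mismatch allowed the shares of the lowest and the highest group were 24.5% (20.4 to 29.2) and 33.4% (28.7 to 38.6). The differences between these groups were not tested. By distance from the start, 6.54% of the peaks at 1 to 4 kb (4.94 to 8.62), 6.18% at 4 to 7 kb and 4.37% at 7 to 10 kb (2.91 to 6.53) held a strict X-box.

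When all sequences of 6 bases were counted without use of the X-box pattern, an X-box arm came first. Of 1677 such sequences with enough occurrences, GGCAAC, which reads GTTGCC on the other strand, had the highest ratio of summits to flanks, with 510 summits (29.3%, 27.2 to 31.5) and 102 flanks (5.86%, 4.85 to 7.07), or 5.00 times as many. The ratio had a median of 1.00 over all of them and 1.25 over the 360 with as many G and C letters. Over all peaks, GGCAAC was at 26.8% of summits and in 6.44% of flanks. The overlapping sequence GCAACC was in 23.7% of summits and 7.76% of flanks, and GGTTAC, which on the other strand is GTAACC, the first arm of the Gadd45g and Nrarp sequences above, was in 13.7% and 4.71%.

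The looser arm GTTNCC was at 61.6% of the summits (59.2 to 63.8) and in 28.9% of the flanks (26.8 to 31.1). Over all peaks the share at the summit was 58.4%. Motifs of other factors were searched on both strands, and most were as frequent in the flank as at the summit. The NFY box CCAAT was at 20.8% of summits and in 22.7% of flanks, AP-1 (TGANTCA) at 5.80% and 5.98%, the forkhead motif TGTTTAC at 2.36% and 2.30%, and the MAF motif TGCTGAC at 4.08% and 4.2%. The E-box CAGCTG was at 17.4% of summits (15.7 to 19.3) and in 9.83% of flanks (8.52 to 11.3), whereas the E-box CAGATG was at 14.8% and 15.4%. Over all peaks, CAGCTG was at 17.9% of summits and CAGATG at 16.2%. The homeodomain motif TAATTA was at 2.47% of summits (1.84 to 3.31), against 2.04% over all peaks, and in 4.54% of flanks (3.66 to 5.62). A GC content of 52.7% at the summit against 47.8% in the flank (medians) moves with these shares, and its part in them was not tested.

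**Figure D4:**
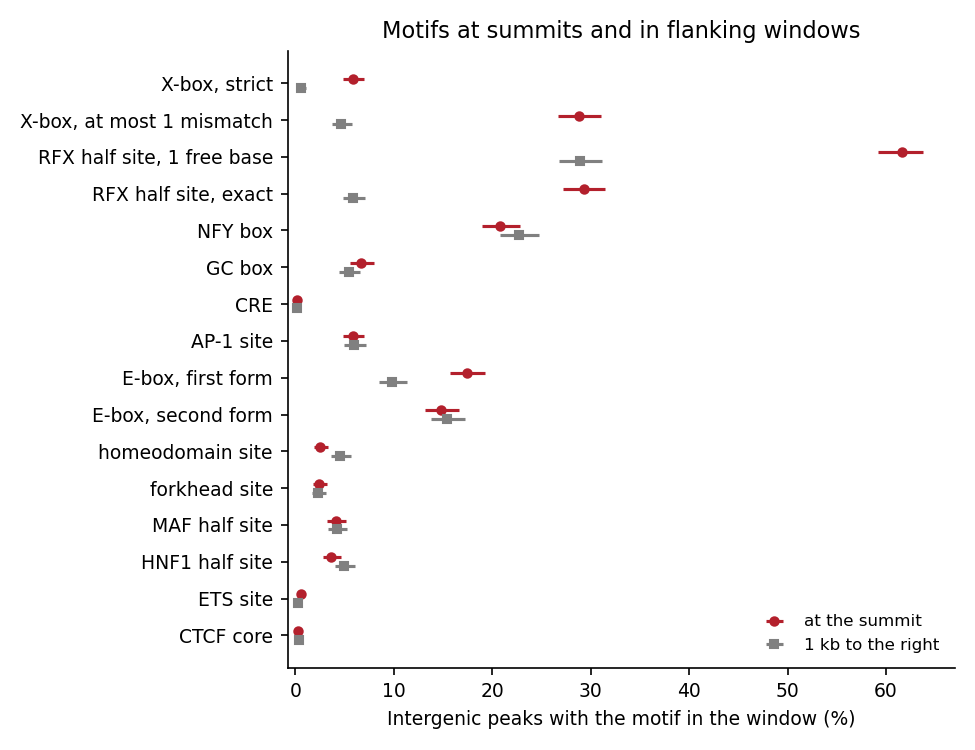
The plot gives the share (%) of the 1740 intergenic peaks close to starts with each motif in the 201 bp at the summit (red) and in a window 1 kb to the right (grey), with 95% Wilson intervals; the first form of the E-box is CAGCTG and the second CAGATG. The X-box, its arms and the first E-box lie to the right of their flanks (61.6% against 28.9% for the arm with 1 free base), and most of the others lie beside them.

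Unlike promoter peaks, these peaks lay in sequence that was poor in CpG. The GC content of the summit window had a median of 52.7%, against 64.7% at promoters and 52.2% at intergenic sites over 10 kb away. A GC content above 50% together with an observed over expected CpG ratio above 0.6 was found at 125 of the 1740 summits (7.18%, 6.06 to 8.49), at 62.1% of promoter peaks (60.8 to 63.5), at 3.45% of intronic peaks of the same distance (2.85 to 4.18) and at 3.27% of the distal intergenic peaks (2.86 to 3.73). The CpG-rich peaks among them had a median of 83 reads and the others of 69. A strict X-box lay in 8% (4.40 to 14.1) of the former and 5.63% (4.61 to 6.87) of the latter.

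Many of these peaks had a neighbour. Another summit lay within 10 kb of 1072 of them (61.6%, 59.3 to 63.9), against 46.6% of all peaks and 38.8% of distal intergenic peaks (37.6 to 40), while intronic peaks at the same distance from a start were at 63.0% (61.2 to 64.7). The 1740 peaks fell into 1474 gaps between genes, of which 234 held 2 or more. They were assigned to 1515 genes, 1317 with 1 peak, 174 with 2, 21 with 3 and 3 with 4.

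The 3 genes with 4 peaks were Socs3, Ier5l and Hmcn2. At Socs3, an inhibitor of cytokine signalling, the peaks lay on both sides of the gene, with 178 and 38 reads at 5651 and 3831 bp on the downstream side and 87 and 84 reads at 5519 and 7169 bp upstream, and the peak of 178 reads held a strict X-box. At Ier5l, 3 peaks of 490, 43 and 49 reads lay on the downstream side and 1 of 87 reads upstream. At Hmcn2, a gene of the extracellular matrix, the 4 peaks lay 3192 to 9151 bp upstream and held 60, 81, 89 and 118 reads. Among genes with 3 peaks, Odf3l2 had 625, 69 and 50 reads, and Six2, a homeobox gene, had 358, 80 and 46. One strong peak beside weak ones was thus seen at Ier5l, Odf3l2 and Six2, whereas the peaks at Hmcn2 were of like height.

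Genes with an intergenic peak close to their start had a promoter peak more often than other genes. A promoter peak was found at 539 of the 1515 genes (35.6%, 33.2 to 38.0), against 20.7% of all protein-coding genes and 19.6% of the others (19.1 to 20.2), and this difference was not tested. Counted over peaks, 35.6% of the intergenic peaks close to starts (33.4 to 37.9), 45.8% of the intronic ones at the same distance (44.1 to 47.7) and 35.0% of distal intergenic ones (33.9 to 36.2) had a promoter peak at the nearest gene. At the 539 genes, the strongest intergenic peak had more reads than the strongest promoter peak in 209 (38.8%, 34.8 to 43.0) and fewer in 328 (60.9%). The medians were 76 reads for the intergenic and 102 for the promoter peak, while the strongest promoter peak of genes without an intergenic peak had a median of 82.

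A strict X-box was at 4.68% (3.28 to 6.65) of the intergenic peaks whose nearest gene had a promoter peak, and at 6.42% (5.13 to 8.01) of those whose nearest gene had none. The reads of these groups had medians of 73 and 69. The difference in the share was not tested.

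Genes of the islet were then counted by lists. An intergenic peak 1 to 10 kb from the start was found at 12 of 46 islet transcription factor genes (26.1%, 15.6 to 40.3), against 6.81% of all 22225 protein-coding gene symbols. Of the genes of insulin secretion, 11 of 55 had one (20%, 11.6 to 32.4). The intergenic sequence of that distance averaged 9.64 kb per gene for the transcription factors, 7.67 kb for the secretion genes and 7.34 kb for all genes. Per length of it, the lists had 36.7, 26.1 and 10.6 peaks per Mb. Promoter peaks were found at 28.3% of the transcription factors and 34.5% of the secretion genes, against 20.8% of all symbols. The part of the longer intergenic sequence in these shares was not tested.

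Among islet transcription factors, the strongest peak was at Myt1, a zinc finger factor of endocrine differentiation. It held 354 reads, was 40.2-fold enriched and lay 4144 bp upstream, and a further peak of 69 reads followed 2271 bp away. At Pax6, which activates hormone genes in islet cells, the peak held 231 reads (25.8-fold), 2253 bp upstream and inside the noncoding gene Pax6os1. Its X-box match printed above lay 91.5 bp from the summit. At Nkx2-2, a homeobox gene of β cell identity, the peak held 226 reads (25.9-fold), 8452 bp upstream in the lincRNA gene Nkx2-2as, and its best match had 3 mismatches. Neither Myt1 nor Nkx2-2 had a promoter peak, while the strongest of 3 promoter peaks at Pax6 held 143 reads.

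Weaker peaks were found at other factors. Sox4, a factor of endocrine progenitors, had peaks of 133 and 100 reads on either side, the latter nearest to a second gene model of that symbol. Onecut2 had 1 of 101 reads and Mafa, an activator of the insulin gene, had peaks of 91 and 36 reads on the downstream side. Neurod2, Foxa2, Irx2, Ptf1a and Mnx1 had peaks of 44 to 74 reads. In all, the 17 peaks at the 12 factors had a median of 69 reads and a median fold enrichment of 10.1, against 70 and 8.53 for all intergenic peaks close to starts. None of the 17 held a strict X-box and 3 held a best match with 1 mismatch, against 5.80% and 23.0% of all intergenic peaks close to starts, and nothing particular to the 17 peaks is read from counts this small.

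Of the secretion genes, the strongest peak was at Kcnh6, a potassium channel of the Erg family, with 231 reads and 16.4-fold enrichment 2822 bp upstream. At Syt7, a calcium sensor of granule exocytosis, the peak held 172 reads (29.4-fold) and a strict X-box 22 bp from the summit, 3453 bp upstream. At Gcgr, the glucagon receptor gene, it held 157 reads (9.42-fold) on the downstream side. At Ucn3, a peptide of mature β cells, it held 128 reads (25.4-fold), 2076 bp upstream, with no promoter peak at that gene. Chgb, a granin of the secretory granule, had a peak of 92 reads with a match of 1 mismatch 1.00 bp from the summit. The peaks at Adra2a, Stx1a, Vgf, Syt4 and Chga held 35 to 87 reads, and that at Syt4 held a strict X-box. Of the 11 peaks, 10 were upstream and 2 held a strict X-box, and their median was 87 reads.

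Disallowed genes are genes that most tissues express and mature β cells keep low. The list held 11 of them, only a part of those that the study counts. The study reports Rfx6 peaks in the vicinity of most of the disallowed genes that rose without Rfx6. A promoter peak was found at 3 of the 11 (27.3%), against 20.8% of all gene symbols. Of the 11, only Ldha, which codes for lactate dehydrogenase A, was nearest to an intergenic peak of this kind (9.09%, 1.62 to 37.7), against 6.81% of all symbols. That peak held 46 reads, was 5.18-fold enriched and lay 2322 bp upstream, in the weaker part of the range, since 83.6% of the list equalled or exceeded it in reads. A further peak of 80 reads (12.6-fold) lay 3644 bp away in the same gap of 8.61 kb and was nearest to the start of Gm5331, on its downstream side at 3045 bp. The summit of the former lay 88.5 bp from the match printed above, and that of the latter 8.50 bp. Such distances can be shortened by the choice of the nearest among equally good matches. No peak met the rule at Cacna1c, a calcium channel gene, or had its nearest start at any of the 10 genes of the RFX family and its partners, where a share of up to 27.8% is within the interval. A start of 1 of these 10 genes lay within 10 kb of a peak that was nearer to another gene.

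The other lists, except that of clock and immediate early genes, had a lower share than all genes (6.81%). Only the interval of the olfactory receptors lay wholly below that value. A peak was found at 1 of 48 genes of the primary cilium (2.08%, 0.369 to 10.9), although 54.2% of these genes had a promoter peak, and their intergenic sequence averaged 4.59 kb. It was found at 1 of 28 genes of ER stress and protein folding (3.57%, 0.633 to 17.7). Of 84 genes of cytosolic ribosomal proteins 4 had one (4.76%, 1.87 to 11.6), and of 67 histone genes 2 (2.99%, 0.822 to 10.2). The intergenic sequence of these 3 lists averaged 5.20, 6.62 and 4.45 kb per gene, against 7.34 kb for all genes. A peak was found at 16 of 1113 olfactory receptor genes (1.44%, 0.887 to 2.32). The olfactory receptor genes had 14.2 kb of such sequence each and 1.08 peaks per Mb of it. Clock and immediate early genes stood higher, at 6 of 28 (21.4%, 10.2 to 39.5), with 31.1 peaks per Mb. The 6 genes were Egr3, Fos, Junb, Jund, Nr4a1 and Per2, and only Per2 among them is a clock gene. Of these, Junb, a subunit of AP-1, had 238 and 58 reads, Fos, its partner, had 180, and Nr4a1, an orphan nuclear receptor, had 198 and 161. These last genes other than Junb were named after their values were seen.

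**Figure D5:**
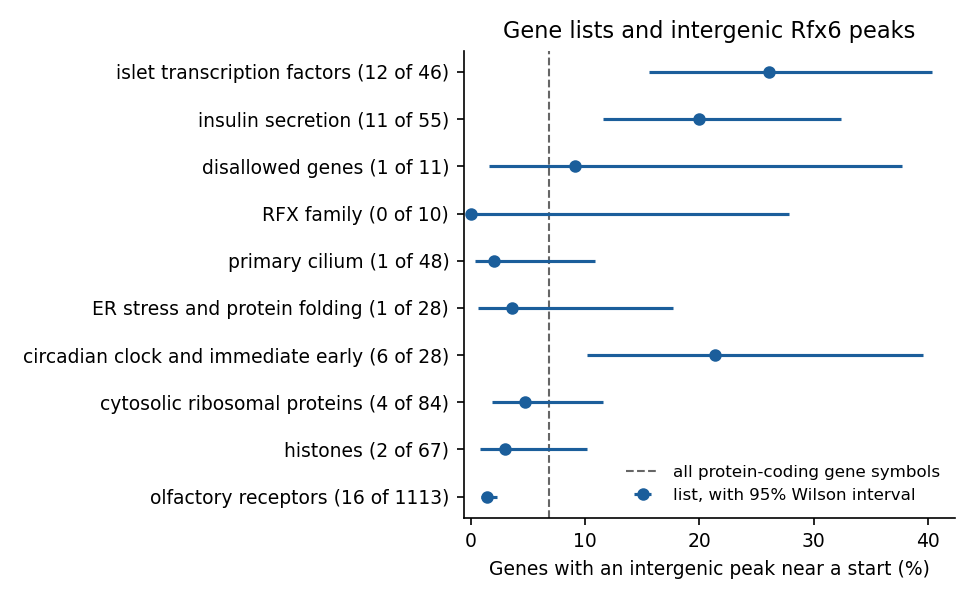
The plot gives the share (%) of each list's genes that are nearest to an intergenic peak 1 to 10 kb from a start, with 95% Wilson intervals, and the dashed line is the share of all protein-coding gene symbols (6.81%). The islet transcription factors (26.1%), the insulin secretion genes (20%) and the clock and immediate early genes (21.4%) have intervals above the line, and the olfactory receptors (1.44%) have theirs below it.

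Among the 10 printed strict X-box sequences, the strongest peak was at Gadd45g, a stress response gene, with 396 reads and 44.0-fold enrichment 7098 bp past the start. Its X-box lay 1.5 bp from the summit. The others were at Spaca3, a gene of the sperm acrosome (380 reads), Bbc3 (349), Trit1, which modifies transfer RNA (337), Nrarp, a feedback inhibitor of Notch (322), Gm10495 (312), 2310007B03Rik (253), Junb (238), Hdac11, a histone deacetylase (231), and Bpifc (215). Of the 10, Spaca3, Bbc3, Gm10495 and Bpifc had 1 base between the arms and the others had 2. The sequences GTTGCCTAGCAAC at Spaca3 and Gm10495 were the same, with 380 and 312 reads and fold enrichments of 49.9 and 16.5, so the same X-box stood under peaks that differed in enrichment.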

How the data were processed

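Peaks of 1 anti-HA ChIP-seq library of Min6B1 cells with 3HA-Rfx6, called against 1 control library, were analysed. Per the labels and the file headers, the authors processed 50 base reads with CASAVA 1.8.2 and Bowtie on mm9 and called peaks with MACS 1.4.2 (p-value cutoff 1e-05, 1 read per position). The deposited values of a peak are the count of ChIP reads, without normalization, the fold enrichment (a ratio to background), an FDR in percent, and a score, minus 10 times the log10 of each p-value. The control was the shallower library, which can change fold enrichments.

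Here each summit (start + summit − 1) was placed on NCBIM37 with GENCODE M1 by a rule on protein-coding gene bodies and protein-coding transcripts. X-boxes, short motifs and all sequences of 6 bases (at least 50 summits and 10 flanks) were searched on both strands in 201 bp. A gene had a promoter peak when a summit lay within 1 kb of its start. The search was tested on simulated data. With 1 library per condition nothing was tested. Named were the 10 peaks with the most reads, the 5 with the highest fold enrichment, the 10 with the most reads and a strict X-box, peaks at islet, secretion, disallowed and RFX genes (up to 12 in full, with 2 of the genes not reported here), the 5 genes with the most peaks, peaks at the limits, and those at Ldha, Pax6 and Cacna1c. Of the 5 genes with the most peaks, 2 were among 21 genes tied at 3 peaks. The members and lists were chosen with earlier results of these data known. Alternatives were stricter peak sets, other starts, gene bodies, distances, windows and patterns. The scripts ran in Python 3.11.15 (scipy 1.17.1, pandas 2.3.3, numpy 2.4.6, matplotlib 3.10.9).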

Additional observations from a re-analysis of the deposited data

How the results depend on the processing

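No paired analysis was possible because each condition had 1 library, so no replicate could be left out either. Of 46 recomputed values, 23 stayed close to the reported ones and 23 moved. The number of intergenic peaks close to starts, 1740, was 841 in the 50% of peaks with the highest scores, 697 at a fold enrichment of at least 10, 1 at an FDR of at most 1%, and 904 with a far limit of 5 kb. The fold limit kept 40.1% of them, against 39.6% of all peaks. The FDR limit kept 0.0575%, against 0.0429% of all peaks (10 of 23308). The share with a strict X-box, 5.80%, became 7.46% at a fold of at least 10, 4.71% within 50 bp, 4.06% around the middle of the peak, 48.8% with a relaxed X-box and 28.8% with 1 mismatch, and it was 0% for the 1 peak left by the FDR. Over all peaks the strict share went from 6.44% to 8.68% at that fold. With a relaxed X-box it was 46.0% over all peaks, and with 1 mismatch 29.9%. In the flanks of the intergenic peaks close to starts, 23.4% held a relaxed X-box. The share upstream, 81.4%, became 87.5% within 5 kb and 76.0% with the starts of every transcript of protein-coding genes. The share whose nearest gene had a promoter peak, 35.6%, became 26.0% among high scores and 19.4% at a fold of at least 10, where 12.2% and 9.01% of all genes had one. It was 38.1% with every transcript, 25.7% with promoters of 500 bp and 42.9% when promoters reached 2 kb and the 1495 peaks farther than 2 kb from a start were counted. The median GC content, 52.7%, was 53.2% in both stricter sets and 53.5% within 50 bp. The share of islet transcription factors, 26.1%, became 15.2% in both stricter sets, and that of secretion genes, 20%, became 9.09% at a fold of at least 10, where 3.46% and 2.90% of all symbols had a peak. Reads per kb of peak, another unit, had a median of 58.4 against 58.5 over all peaks. The peak with the most reads, at Odf3l2, had an FDR of 25.3%, and the 1 peak kept by the FDR limit was that at Pcgf5, with 395 reads.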

Other observations

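The intergenic peaks close to starts were unevenly spread over the chromosomes. Per Mb of intergenic sequence 1 to 10 kb from a start, chromosome 15 held 21.2 (17.6 to 25.3), chromosome 11 held 17.0 (14.6 to 19.7) and chromosome 12 held 15.5 (12.3 to 19.2), against 10.6 over all chromosomes. Chromosome X held 11 peaks, or 1.31 per Mb (0.653 to 2.34), and chromosome 3 held 6.32 (4.66 to 8.38). The intervals cover counting error only, and no test was made. Densities of all listed peaks by chromosome were not computed, so whether this spread is particular to the intergenic peaks close to starts was not tested.

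Peaks inside noncoding genes had a median of 81.5 reads against 70 for all intergenic peaks close to starts. A strict X-box was at the summit of 1.85% of these 108 peaks (0.509 to 6.5). This interval contains the 5.80% of all intergenic peaks close to starts and the 6.44% of all peaks, and the difference was not tested.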
